A study of Mus musculus with 106 samples.

Results

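Enhancers are stretches of DNA that raise transcription of genes at a distance, and acetylation of lysine 27 of histone H3 (H3K27ac) marks those in use as well as active promoters. Long clusters of such marked sites, often called super-enhancers, lie beside genes that define a cell type, and they are known to be exchanged as hematopoietic stem cells (HSCs) give rise to macrophages. Trimethylation of lysine 4 (H3K4me3) marks mainly the start sites of genes. Bone marrow-derived macrophages (BMDMs) treated with lipopolysaccharide (LPS) and interferon-γ (IFN-γ) switch on an inflammatory program with its own enhancers.

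The subject here is the large clusters of distal H3K27ac peaks in HSCs, unstimulated BMDMs and BMDMs given LPS+IFN-γ. From each of the 35 H3K27ac lists, the 30000 peaks ranking first by −log10 p entered, less those within 2.5 kb of a start site of a protein-coding gene. The rest were joined when 12.5 kb or less apart, and the 300 joined intervals with the largest summed peak length were kept. Merging these intervals over the lists gave 1256 candidate regions, of which 449 (35.7%) were found in at least 6 lists of 1 cell state (12 lists of HSCs, 11 of unstimulated BMDMs and 12 of LPS+IFN-γ BMDMs) and are called clusters below. Another 330 candidate regions came from a single list. Because clusters and their states were chosen by measured H3K27ac, their H3K27ac levels by state are given as a description without a test.

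The libraries came from C57BL/6J mice made diabetic with streptozotocin, a toxin of the insulin-producing β cells, and from control mice. Mice entered at 12 to 14 weeks of age, streptozotocin was given at 42 to 45 mg/kg per day on 5 days, and those whose nonfasting glucose exceeded 13.9 mmol/L 6 weeks after the last dose counted as diabetic. The cells labelled HSC are marrow cells left after depletion of mature lineages (CD3, CD4, B220, Ter119 and Gr1), so they include progenitors of several lineages. BMDMs of both disease groups were grown for 7 days with L929-conditioned medium in 5 mmol/L glucose and stayed unstimulated or received LPS at 100 ng/mL with IFN-γ at 10 ng/mL over 16 h. Each mark had 6 libraries in every group except diabetic unstimulated BMDMs, which had 5. The study's methods count individual animals as replicates, while the labels do not tie a library to an animal or say which libraries of different states share one.

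The H3K27ac lists held between 51162 and 176559 peaks (median 124083), and the lists state no read totals, so depth is unknown. Marker promoters were read for a top H3K27ac peak within 1000 bp as a check of the labels. HSC libraries marked a median of 23 (21 to 24) of 24 promoters of stem cell transcription factors, and unstimulated and LPS+IFN-γ BMDMs 19 (11 to 22) and 17.5 (11 to 20). Of 30 macrophage surface genes, HSCs marked 14.5 (12 to 17), unstimulated BMDMs 17 (15 to 21) and LPS+IFN-γ BMDMs 18.5 (15 to 21). Of 20 macrophage transcription factors, HSCs marked 18 (15 to 19) and each BMDM state 19 (19 to 19). Of 53 genes of the LPS and interferon response, HSCs marked 34 (31 to 36), unstimulated BMDMs 34 (30 to 39) and LPS+IFN-γ BMDMs 38 (33 to 41). The last list thus did not separate the BMDM states. HSC libraries also marked 11.5 (9 to 14) of 14 erythroid and megakaryocyte promoters, against 6 (6 to 7) and 6.5 (5 to 9) in the BMDM states, and the part of these other lineages in the HSC clusters was not tested.

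Before the results, 3 control BMDM libraries have to be named, because they stood apart from their groups in earlier work on these data. When regions were set by the same rule in the diabetic lists alone, 92 belonged to LPS+IFN-γ alone and 43 to unstimulated BMDMs alone. Control LPS+IFN-γ library 5 held 14 of the 92 and 29 of the 43, whereas the other 5 control LPS+IFN-γ libraries held 39 to 63 and 5 to 13. Control unstimulated libraries 5 and 6 held 54 and 39 of the 92 and 8 and 13 of the 43, against 7 to 37 and 10 to 27 in the other 4. Library 6 was thus close to the edge of its group, and libraries 5 of both states went against their labels. All libraries were kept under their labels. The number of clusters and several H3K27ac test counts are also given without these 3. Class sizes, ranges over libraries and mean coverages include them throughout. Without them, the rule gave 452 clusters and kept 443 of the 449. For H3K4me3, 4 libraries had an unclear scaling of fold and −log10 p in earlier work on these lists (control LPS+IFN-γ 6, control unstimulated 6, diabetic LPS+IFN-γ 1 and 2), and each H3K4me3 count was also made without them.

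A 200-base window around the strongest H3K27ac summit is shown for a few clusters, to make visible what kind of sequence carries the signal. The letters are the + strand of GRCm38, and capitals mark matches, on either strand, to any of 8 short motifs (GAGGAAGT for PU.1, TGTGGTT for RUNX factors, AGATAA for factors of the GATA family, TGANTCA for AP-1, TTGCNNAA for C/EBP factors, GAAANNGAA for IRF factors, GGNNTTTCC for NF-kB and TCACGTGA for MITF/TFE factors). The first pair represents clusters of all 3 states.
Cebpb chr2:167765022-167765221: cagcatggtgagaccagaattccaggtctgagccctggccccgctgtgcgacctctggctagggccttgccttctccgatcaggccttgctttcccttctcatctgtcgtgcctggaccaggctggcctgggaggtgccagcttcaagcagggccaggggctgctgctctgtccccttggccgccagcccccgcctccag
Zfp36l2 chr17:84081783-84081982: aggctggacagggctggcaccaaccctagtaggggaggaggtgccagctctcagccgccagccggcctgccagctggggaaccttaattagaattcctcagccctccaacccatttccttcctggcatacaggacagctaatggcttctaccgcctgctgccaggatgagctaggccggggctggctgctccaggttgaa
The next pair comes from clusters of HSCs alone, and the Btg2 window holds a RUNX match.
Klf13 chr7:64048587-64048786: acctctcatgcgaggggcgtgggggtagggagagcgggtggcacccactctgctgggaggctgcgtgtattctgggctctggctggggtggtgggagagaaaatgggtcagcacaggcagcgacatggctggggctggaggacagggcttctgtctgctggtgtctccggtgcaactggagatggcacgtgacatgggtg
Btg2 chr1:134093184-134093383: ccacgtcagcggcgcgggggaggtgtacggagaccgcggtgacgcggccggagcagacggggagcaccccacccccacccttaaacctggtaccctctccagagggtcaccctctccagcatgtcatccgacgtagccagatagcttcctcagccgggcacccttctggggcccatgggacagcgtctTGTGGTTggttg
Next come clusters of both BMDM states. The Atf3 window, chosen after its letters were seen, holds a pair of palindromic MITF/TFE matches.
Banp chr8:122110213-122110412: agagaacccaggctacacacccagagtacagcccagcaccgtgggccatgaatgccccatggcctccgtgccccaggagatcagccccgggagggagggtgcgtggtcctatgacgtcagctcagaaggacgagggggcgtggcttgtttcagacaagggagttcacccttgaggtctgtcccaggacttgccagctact
Atf3 chr1:191224555-191224754: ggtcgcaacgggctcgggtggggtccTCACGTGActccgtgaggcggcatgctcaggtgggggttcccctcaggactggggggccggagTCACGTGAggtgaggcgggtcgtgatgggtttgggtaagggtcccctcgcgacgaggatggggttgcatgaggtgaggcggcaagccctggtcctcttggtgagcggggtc
The last pair stands for LPS+IFN-γ alone (Pstpip1, with an AP-1 match) and unstimulated BMDMs alone (Sptb).
Pstpip1 chr9:56104933-56105132: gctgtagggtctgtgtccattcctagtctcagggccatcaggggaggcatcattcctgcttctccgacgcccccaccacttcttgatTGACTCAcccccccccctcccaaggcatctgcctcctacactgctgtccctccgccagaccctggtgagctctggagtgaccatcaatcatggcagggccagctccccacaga
Sptb chr12:76594192-76594391: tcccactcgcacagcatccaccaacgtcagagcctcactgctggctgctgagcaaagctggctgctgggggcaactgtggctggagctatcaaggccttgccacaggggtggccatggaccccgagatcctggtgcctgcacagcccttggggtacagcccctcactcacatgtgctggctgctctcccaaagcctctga
These windows were rich in G and C, between 61.0% and 68.0%. None overlapped an exon of the annotation, and clusters whose window did, such as Rbm38 and Socs1, were passed over for the next of their class. A match of letters describes the sequence and does not show that a factor binds there.

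The clusters sorted into 7 classes by the states in which they were found. HSCs alone had 135, both BMDM states 108, all 3 states 87, LPS+IFN-γ alone 65, unstimulated BMDMs alone 28, HSCs with unstimulated BMDMs 14 and HSCs with LPS+IFN-γ BMDMs 12. Thus 201 clusters were found in BMDMs but not in HSCs by this rule. Unstimulated and LPS+IFN-γ BMDMs shared 195 clusters, which is 82.3% of the 237 unstimulated and 71.7% of the 272 stimulated ones. HSCs shared fewer with either, 101 with unstimulated BMDMs (40.7% of the 248 of HSCs and 42.6% of the others) and 99 with LPS+IFN-γ BMDMs (39.9% and 36.4%). Single lists found 173 to 230 of the 449 clusters in HSCs (median 214.5), 192 to 224 in unstimulated BMDMs (216) and 199 to 242 in LPS+IFN-γ BMDMs (226).

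**Figure D1:**
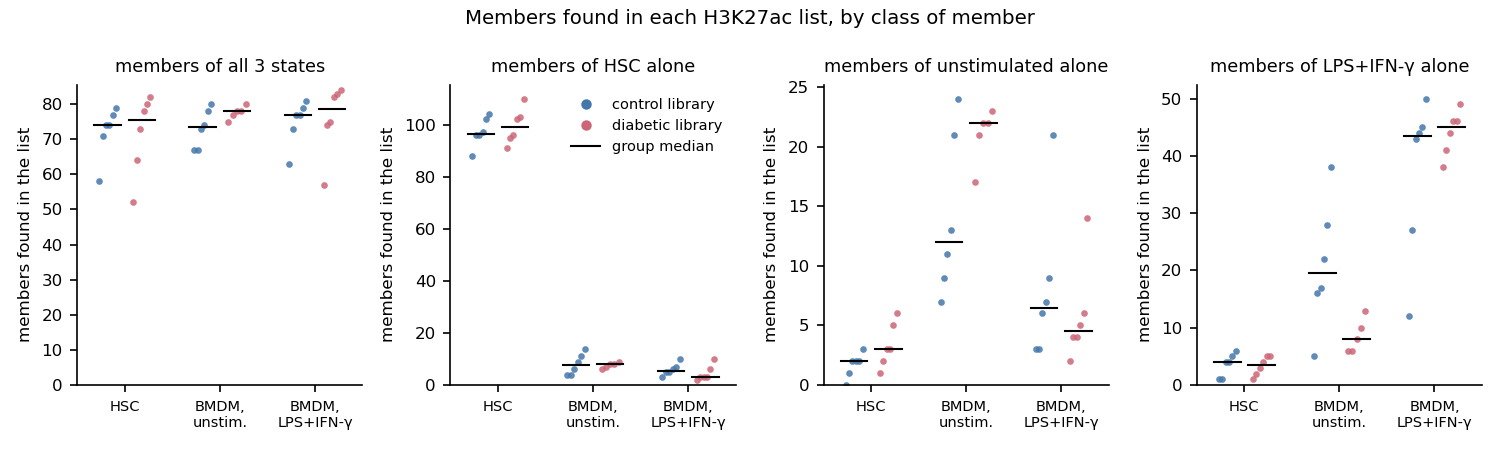
Number of clusters found in each H3K27ac list, by class (all 3 states, HSC alone, unstimulated BMDM alone, LPS+IFN-γ alone) on the y axis and by cell state on the x axis. Points are libraries (blue control, red diabetic) and black lines are group medians. BMDM lists found 2 to 14 of the 135 clusters of HSCs alone, while the single BMDM states overlap through a few control libraries.

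The classes of single BMDM states were the least sharply drawn. Of the 65 clusters of LPS+IFN-γ alone, LPS+IFN-γ lists found 12 to 50 each (median 44) and unstimulated lists 5 to 38 (median 13). Clusters of unstimulated BMDMs alone came to 7 to 24 of the 28 per unstimulated list and 2 to 21 per LPS+IFN-γ list. The 12 and the 21 came from control LPS+IFN-γ library 5, the 38 and the 7 from control unstimulated library 5. In the first of these classes 1 cluster was absent from every unstimulated list and 49 were absent from every HSC list. By contrast, 95 of the 135 clusters of HSCs alone were in no unstimulated list and 104 in no LPS+IFN-γ list, and 63 of the 108 of both BMDM states were in no HSC list. Presence in every list of the own states held for 19 clusters of HSCs alone, 13 of both BMDM states and 14 of all 3 states, and for 0 of the single BMDM states.

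Clusters were longer than the other candidate regions, with a median width of 50.8 kb (6.2 to 310.2) against 26.1 kb (2.6 to 131.4), which the choice by summed length favours. The class medians were 71.3 kb for all 3 states, 63.2 kb for both BMDM states, 46.4 kb for HSCs alone, 45.7 kb for LPS+IFN-γ alone and 35.2 kb for unstimulated BMDMs alone. Of the 449, 246 held a protein-coding start site, 370 overlapped a protein-coding gene and 79 overlapped none. Linking each cluster to the gene with the nearest start site and to the genes it overlaps gave 621 gene names, 2.83% of the 21911 distinct names of protein-coding genes. Clusters with a start site of a long noncoding RNA outside the coding flanks numbered 177 (39.4%), against 215 of 807 other candidate regions (26.6%), and the share was highest for all 3 states (48 of 87, 55.2%). Within 2.5 kb of those noncoding start sites lay a median of 9.4% (HSCs), 8.8% (unstimulated) and 8.4% (LPS+IFN-γ) of the H3K27ac length in clusters, so most of it was distal to them as well.

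Membership at the edge of the rule was not sharp. Found in exactly 6 lists of a state were 32 clusters for HSCs, 44 for unstimulated BMDMs and 49 for LPS+IFN-γ BMDMs, and 37, 22 and 23 regions fell 1 list short and belonged to no class. Just inside, the cluster in Pip4k2a, a lipid kinase gene, was found in 6 HSC lists and had a median of 6.06 kb of distal bases under top peaks in HSCs. Just outside, a region in Fam107b was found in 5 HSC lists with a median of 4.30 kb. Likewise the cluster near the zinc exporter gene Slc30a1 had 6 LPS+IFN-γ lists and a median of 5.26 kb there, and a region in Nrp2, which encodes a semaphorin coreceptor, had 5 lists and 4.58 kb. The 300th interval of a list measured 2461 to 8789 bp in unstimulated and 3295 to 10752 bp in LPS+IFN-γ BMDMs, so the length needed differed between lists.

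Among clusters of all 3 states, that around Cebpb was the longest. Cebpb encodes C/EBPβ, a transcription factor of myeloid cells and of the inflammatory response, and its cluster spans chr2:167673928-167984132 (310.2 kb) over Cebpb, the phosphatase gene Ptpn1, Ripor3 and Tmem189. All 35 lists held it. The distal length under top H3K27ac peaks was 16.35 kb at the lowest, 37.80 kb at the median and 56.14 kb at the highest in HSC libraries. Unstimulated BMDMs had 38.07, 78.73 and 114.47 kb, and LPS+IFN-γ BMDMs 74.08, 112.50 and 185.25 kb. Every LPS+IFN-γ library thus lay above every HSC library, while both BMDM states overlapped.

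The second leading cluster, chr17:84028180-84190997 at Zfp36l2, had its highest median in HSCs. Zfp36l2 encodes an RNA-binding protein that promotes decay of AU-rich messages. Lowest, median and highest lengths were 28.86, 43.16 and 55.52 kb in HSCs, 9.37, 27.85 and 56.74 kb in unstimulated and 21.43, 34.16 and 78.20 kb in LPS+IFN-γ BMDMs. The ranges overlapped widely. Zmiz1, a transcriptional coactivator gene, and Myh9, which encodes the heavy chain of nonmuscle myosin IIA, had overlapping ranges too, with medians of 32.36, 31.58 and 36.25 kb for Zmiz1 and 18.27, 13.09 and 17.79 kb for Myh9.

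The other 2 leading clusters of all 3 states are of another kind. That near Frmd8 (chr19:5786630-5883051) covers the start sites of the abundant nuclear RNAs Malat1 and Neat1, and a median of 49.3% of its H3K27ac and 100.0% of its H3K4me3 lay within 2.5 kb of noncoding start sites, so it is in large part a pair of noncoding promoters. The cluster at chr6:47650582-47686893 starts 55241 bp from the nearest coding start site, that of Ezh2, the methyltransferase of Polycomb repressive complex 2. All 35 lists held it, with median lengths of 13.29, 18.29 and 17.74 kb over HSCs, unstimulated and LPS+IFN-γ BMDMs. No noncoding start site of the annotation lay in it, and whether its reads map to several places was not tested.

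**Figure D2:**
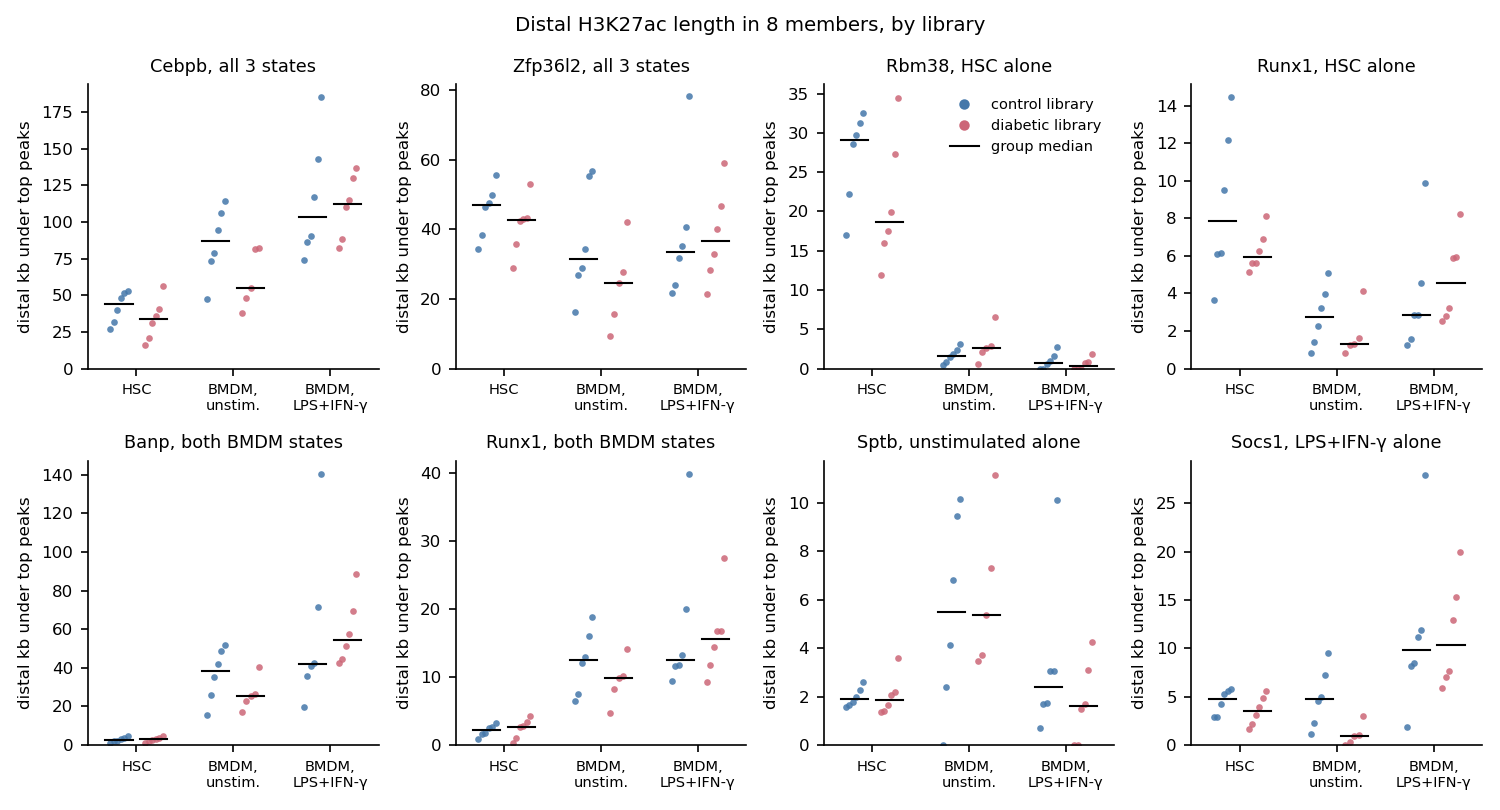
Distal length under the top 30000 H3K27ac peaks (kb, y axis) by library for 8 clusters (Cebpb, Zfp36l2, Rbm38, Runx1 of HSCs alone, Banp, Runx1 of both BMDM states, Sptb and Socs1), by cell state on the x axis. Points are libraries (blue control, red diabetic) and black lines group medians. In Rbm38 the lowest HSC library has 11.93 kb and the highest BMDM library 6.52 kb, whereas in Sptb and Socs1 the BMDM states overlap.

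Clusters of HSCs alone were led by Rbm38, an RNA-binding protein gene (chr2:173016821-173087861, 71.0 kb, all 12 HSC lists). HSC libraries had 11.93, 24.79 and 34.45 kb (lowest, median and highest), unstimulated BMDMs 0.43, 2.16 and 6.52 kb and LPS+IFN-γ BMDMs 0, 0.60 and 2.69 kb. HSC and BMDM libraries did not overlap. The same was true of Ccdc88c, whose product regulates Wnt signaling (HSC 9.0 to 16.76 kb, BMDM at most 1.54 kb), and of Pitpnc1, a phosphatidylinositol transfer protein gene (7.75 to 16.30 kb against at most 2.89 kb). For the transcription factor gene Klf13, HSCs ranged from 11.55 to 25.73 kb (median 17.27) and BMDMs reached 17.74 kb. For the antiproliferative gene Btg2 the HSC range was 8.39 to 20.19 kb (median 14.29) and unstimulated BMDMs reached 14.35 kb, so both overlapped.

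Counted over the class, every HSC library lay above every BMDM library in 37 of the 135 clusters of HSCs alone (38 of the 449), against 5.65% of all 1256 candidate regions. Every HSC library lay below every BMDM library in 43 clusters, 32 of them among the 108 of both BMDM states, against 6.61% of candidate regions. Unstimulated and LPS+IFN-γ libraries failed to overlap in 0 clusters, and in 0% of candidate regions. H3K27ac chose the classes, so these counts describe how far apart the libraries lie and test nothing.

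The leading clusters of both BMDM states lay at Banp, Lrp1, 1600014C23Rik, Atf3, Ppard and Nfatc2. Banp, a nuclear protein gene, had the longest (chr8:122005322-122206533, 201.2 kb), with 1.13, 2.86 and 4.83 kb in HSCs, 15.31, 26.58 and 51.64 kb in unstimulated and 19.59, 48.11 and 140.22 kb in LPS+IFN-γ BMDMs. At Lrp1, which encodes an endocytic receptor for lipoproteins and apoptotic cells (chr10:127553026-127618269), HSCs had 0.37, 2.94 and 5.70 kb, unstimulated BMDMs 13.63, 26.43 and 34.20 kb and LPS+IFN-γ BMDMs 17.09, 30.62 and 51.79 kb. In both, every BMDM library exceeded every HSC library. Atf3, a stress-induced transcription factor gene (chr1:191220608-191314222), had medians of 4.53, 16.31 and 19.37 kb, Nfatc2, a calcium-regulated transcription factor gene, 3.36, 13.97 and 19.06 kb, and Ppard, a fatty acid-sensing nuclear receptor gene, 6.60, 14.24 and 17.80 kb. The cluster at 1600014C23Rik completed the 6 with 4.10, 20.74 and 25.96 kb.

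The leading cluster of LPS+IFN-γ alone was that of Socs1, the feedback inhibitor of interferon signaling (chr16:10713483-10782238, which reaches into Clec16a). It was found in 1 HSC, 3 unstimulated and 11 LPS+IFN-γ lists. Libraries had 1.69, 4.08 and 5.74 kb in HSCs, 0, 2.29 and 9.53 kb in unstimulated and 1.91, 9.82 and 27.96 kb in LPS+IFN-γ BMDMs. The BMDM states overlapped, as they did for Pstpip1, a cytoskeletal adaptor gene (medians 2.84, 4.20 and 6.76 kb), Capzb, which caps actin filaments (2.29, 4.71 and 6.61 kb), the galectin gene Lgals3 (1.20, 5.50 and 8.98 kb), Sipa1l2 (0.35, 5.56 and 8.12 kb) and Arhgap22, a Rac GTPase-activating protein gene (0.16, 3.2 and 7.74 kb).

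Unstimulated BMDMs alone were led by Sptb, which encodes erythroid β-spectrin (chr12:76580526-76632755). It was found in 9 unstimulated lists and 1 LPS+IFN-γ list, with 1.36, 1.88 and 3.58 kb in HSCs, 0, 5.37 and 11.17 kb in unstimulated and 0, 1.72 and 10.10 kb in LPS+IFN-γ BMDMs. Others in the class barely differed between BMDM states, for example Map3k14, the NF-κB-inducing kinase gene, with medians of 7.22 and 7.48 kb, and Il10ra, the interleukin-10 receptor gene, with 6.04 and 4.54 kb. Among the 26 clusters of HSCs and 1 BMDM state, the cluster near Il10rb had medians of 9.86, 4.90 and 6.04 kb over HSCs, unstimulated and LPS+IFN-γ BMDMs, and that near Fosb, an AP-1 subunit gene, 6.34, 4.80 and 4.26 kb.

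For 10 gene lists (198 genes), links to clusters were counted and set beside the 2.83% of all genes. Of 24 stem cell transcription factors, 7 (29.2%) were linked to a cluster, 6 of them to one of HSCs alone: Lmo2, Gfi1b, Bcl11a, Cbfa2t3, Fli1 and Runx1. Zfpm1, the GATA cofactor FOG1, was linked to a cluster of all 3 states. Macrophage transcription factors were linked in 3 of 20 (Cebpa, Cebpb and Rxra), macrophage surface genes in 4 of 30 (Csf1r, Fcgr3, Gpnmb and Lgals3), and genes of the LPS and interferon response in 3 of 53 (Nfkbia, Socs1 and Socs3, 5.66%). The lists of stem cell surface, erythroid and megakaryocyte, neutrophil, lymphoid, mast cell and dendritic genes had 0 linked genes, of 14, 14, 12, 14, 8 and 8. These counts hold for clusters chosen over the lists of both disease groups.

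Lmo2, a bridging protein of stem cell transcription factor complexes, had its cluster at chr2:103874308-103948646 with 5.16, 9.42 and 13.79 kb in HSCs, 0, 0.73 and 3.50 kb in unstimulated and 0.59, 1.51 and 4.51 kb in LPS+IFN-γ BMDMs. At Gfi1b, a repressor gene of erythroid and megakaryocyte development (chr2:28593558-28611793), the values were 3.95, 6.48 and 8.93 kb, then 0, 0.29 and 2.60 kb, then 0, 0.70 and 2.26 kb. HSC libraries lay above all BMDM libraries at both genes. At Bcl11a, a repressor gene of fetal globin and a lymphoid factor, the HSC values were 2.68, 5.74 and 12.73 kb and the highest BMDM library had 0.34 kb. Fli1, an ETS factor gene, was less separate, with 1.96, 4.47 and 10.34 kb in HSCs and up to 11.80 kb in BMDMs.

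Runx1, which encodes a transcription factor needed for the formation of HSCs, was linked to 2 clusters found in different cell types. The first, chr16:92777840-92832842, was found in 8 HSC lists and in 0 BMDM lists, with 3.63, 6.21 and 14.45 kb in HSCs, 0.82, 1.60 and 5.10 kb in unstimulated and 1.24, 3.04 and 9.89 kb in LPS+IFN-γ BMDMs. The second, chr16:92601161-92684178, lies 11317 bp from a start site and was found in 0 HSC, 9 unstimulated and 12 LPS+IFN-γ lists. It had 0.33, 2.58 and 4.27 kb in HSCs, 4.75, 10.18 and 18.81 kb in unstimulated and 9.22, 13.88 and 39.83 kb in LPS+IFN-γ BMDMs. Of 18 genes linked to more than 1 cluster, 3 had both 1 of HSCs alone and 1 of both BMDM states or a single BMDM state, namely Runx1, Ahdc1 and Gm20388. Gm20388 is a very long transcript that the study took out of its RNA annotation because it overlaps other genes. Its 10 clusters include those named for Banp, Zfpm1 and Cbfa2t3, so it does not count as a gene with clusters of its own.

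Of the 7 linked macrophage genes, Cebpa, Cebpb and Fcgr3 had clusters of all 3 states. Cebpa, the C/EBPα gene of granulocyte and monocyte progenitors, had medians of 4.26, 8.45 and 7.28 kb, and the Fc receptor gene Fcgr3 4.86, 6.98 and 7.39 kb. The retinoid X receptor gene Rxra belonged to both BMDM states with 6.27, 12.54 and 15.58 kb, and Gpnmb, a transmembrane glycoprotein gene of lysosome-rich macrophages, to LPS+IFN-γ alone with 0.12, 3.70 and 6.20 kb. The cluster over Socs3, an inhibitor of cytokine signaling, had 12.07, 13.47 and 27.27 kb in the 3 states. Nfkbia, which encodes the NF-κB inhibitor IκBα, was linked to a cluster of HSCs and LPS+IFN-γ BMDMs with 5.66, 3.48 and 6.89 kb.

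Whether the classes hold in libraries that did not choose them was tested by setting regions in the lists of 1 disease group and reading the other. The measure was the percentage of a region's distal bases under top H3K27ac peaks, fitted with limma over all candidate regions of that choice, and a region counted as changed at a Benjamini-Hochberg adjusted p under 0.05. Control lists gave 511 clusters among 1098 regions. In diabetic libraries, 131 of the 168 clusters of HSCs alone were higher in HSCs than in unstimulated BMDMs and 0 were lower, against 26.3% of all regions higher. Of the 122 clusters of both BMDM states 56 were lower in HSCs and 0 higher, against 17.3% of all regions lower. Of those of unstimulated BMDMs alone 17 of 47 were lower, of LPS+IFN-γ alone 13 of 51, and of the 96 of all 3 states 9 were higher and 9 lower.

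Control libraries were read in the 507 clusters (of 1065 regions) set in diabetic lists. Here 109 of 146 clusters of HSCs alone were higher in HSCs (27.5% of all regions were) and 61 of 99 of both BMDM states were lower (19.3% of all). Among 84 clusters of all 3 states, 6 were higher and 4 lower. Mean coverage over the clusters of HSCs alone was 20.84, 21.66 and 22.54% (lowest, median and highest library) in control HSCs and 3.86, 6.26 and 12.56% in control unstimulated BMDMs. Over the clusters of both BMDM states it was 5.56, 9.19 and 9.87% against 15.03, 24.02 and 38.98%. In diabetic libraries the same classes had medians of 16.32 against 4.92% and of 6.31 against 16.55%, again without overlap of the libraries.

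**Figure D3:**
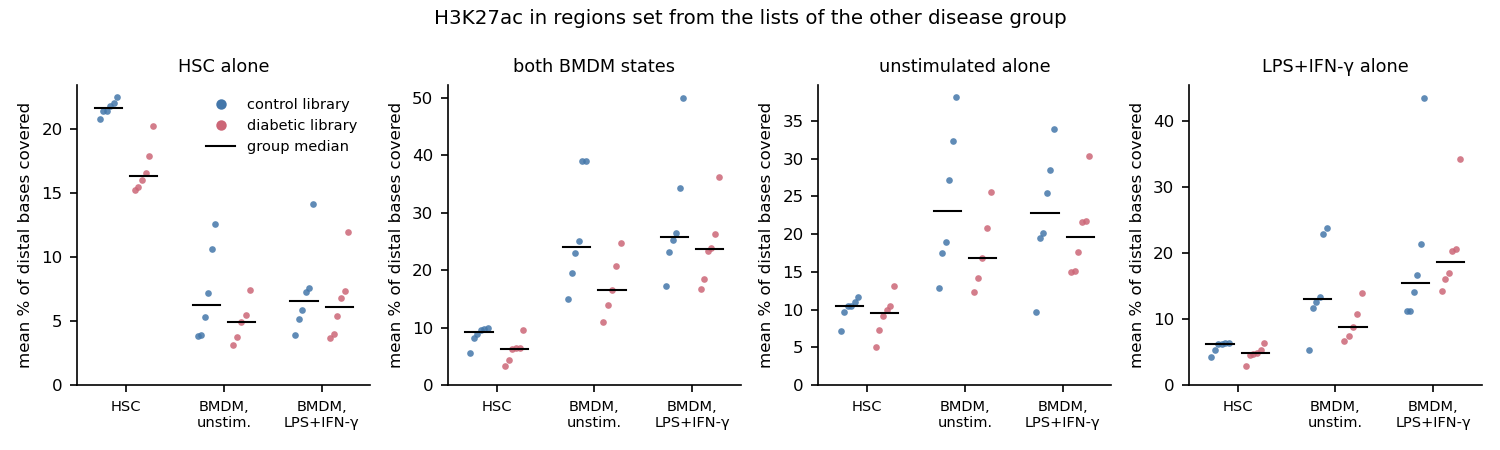
Mean percentage of distal bases covered by top H3K27ac peaks (y axis) over clusters of 4 classes, by cell state on the x axis, in libraries of the disease group that did not set the regions. Points are libraries (blue control, read in regions set from diabetic lists; red diabetic, read in regions set from control lists) and black lines are group medians. HSC points lie above all BMDM points for HSCs alone and below them for both BMDM states. The points of the BMDM states overlap for unstimulated BMDMs alone in both disease groups and for LPS+IFN-γ alone in control libraries.

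Rbm38, the leading cluster of HSCs alone, was higher by 41.26 ± 3.72 percentage points (SE, limma, adjusted p = 1.1e-07) in control HSCs, with 28.1, 48.0 and 51.7% of its distal bases covered against 0.7, 2.7 and 5.2% in unstimulated BMDMs. A region at Ormdl3, a regulator of sphingolipid synthesis, differed most, with 57.3, 64.6 and 70.7% against 0, 0 and 22.4% (57.17 ± 6.27, limma adjusted p = 7.77e-07). The region of Gfi1b had 31.7, 44.1 and 54.5% against 0, 3.4 and 15.1% (37.97 ± 4.12, limma adjusted p = 7.5e-07). The ranges of HSC and BMDM libraries did not overlap in any of these. In diabetic libraries, that of the semaphorin gene Sema4b (chr7:80190986-80211949) had 24, 42.7 and 52.0% against 2.3, 4.7 and 7.7% (36.49 ± 4.18, limma adjusted p = 5e-06), and that of the anion exchanger gene Slc4a1 was higher by 35.24 ± 5.37 (limma adjusted p = 5.06e-05). Slc4a1 belongs to the erythroid and megakaryocyte list, of which 0 genes were linked to clusters chosen over both disease groups. A top H3K27ac peak marked its promoter in 12 HSC, 0 unstimulated and 3 LPS+IFN-γ libraries.

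Among regions lower in HSCs, that of Ahnak2 (chr12:112792626-112799643) had 0, 0 and 10.6% in diabetic HSCs against 49.7, 66.2 and 90.8% in diabetic unstimulated BMDMs, a difference of −65.93 ± 7.65 (limma adjusted p = 5.35e-06). Regions of Tmem267 and of Spen, a transcriptional corepressor gene, were lower in both sets of libraries. Tmem267 differed by −55.13 ± 7.94 (limma adjusted p = 2.93e-05) in diabetic libraries and by −57.3 in control libraries. Spen differed by −33.28 ± 5.33 (limma adjusted p = 7.83e-05) and by −56.04.

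Stimulation moved fewer clusters, and its result differed between the disease groups in number called. In diabetic libraries, 48 of the 511 clusters were higher in LPS+IFN-γ than in unstimulated BMDMs and 1 was lower, against 8.74% of all regions higher and 1.00% lower. Over all classes together, the share of clusters called higher was thus close to that of all regions. By class, 19 of 51 of LPS+IFN-γ alone, 18 of 122 of both BMDM states and 7 of 96 of all 3 states were higher, and of the 47 of unstimulated BMDMs alone 2 were higher and 1 lower. Top peaks covered more distal bases in stimulated libraries, and with coverage scaled to each library's total the split was 57 higher and 16 lower, with 20 of 51 higher in LPS+IFN-γ alone and 4 of 47 lower in unstimulated BMDMs alone. With the 3 doubted control lists left out of the choice of regions, 46 were higher and 4 lower. Leaving out diabetic unstimulated library 1, 4 or 5 gave 31, 20 and 22 calls. The counts under these other settings are of clusters only, without the share of all regions beside them.

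The region at Ccne1, the cyclin E1 gene (chr7:38116140-38136925), had 0, 0 and 3.3% covered in diabetic unstimulated BMDMs and 19.2, 21.5 and 50.1% in diabetic LPS+IFN-γ BMDMs, higher by 26.06 ± 4.05 (limma adjusted p = 0.000705). At Hivep3, a zinc finger factor gene, the values were 3.5, 6.4 and 7.9% against 17.5, 24.3 and 62.2% (23.51 ± 5.39, limma adjusted p = 0.0112). Neither overlapped between the states. The actin-binding protein gene Lasp1 was set as unstimulated alone in control lists and yet was higher after stimulation of diabetic BMDMs, with 24.4, 42.8 and 53.0% against 57.9, 62.7 and 88.0% (27.36 ± 6.80, limma adjusted p = 0.0162). The 1 cluster that fell was Sptb (chr12:76587084-76617101), with 11.1, 17.9 and 31.2% against 0, 5.3 and 12.0% (−13.74 ± 3.35, limma adjusted p = 0.0146), whose ranges overlapped slightly. In the fit that pairs same-numbered libraries 38 of the 49 calls remained, these 4 regions among them (limma adjusted p of 0.00222 for Ccne1, 0.0237 for Hivep3, 0.0333 for Lasp1 and 0.011 for Sptb). Scaled to covered length the call at Lasp1 was lost (limma adjusted p = 0.0687), and with 20000 peaks per list that at Hivep3 (limma adjusted p = 0.0728).

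In control libraries limma called 0 of 507 clusters between LPS+IFN-γ and unstimulated BMDMs (0% of 1065 regions), although 31 regions, 10 of them clusters, had an unadjusted p under 0.05. The smallest adjusted p was 0.671, and Fisher's exact test on libraries holding a peak also gave 0. Without the 3 libraries named above, 4 clusters were higher and 3 lower, but those libraries were doubted for their values in these same regions, so this count is no independent test. Mean coverage of clusters of LPS+IFN-γ alone was 5.35, 12.97 and 23.85% in control unstimulated and 11.16, 15.43 and 43.48% in control LPS+IFN-γ libraries, which overlap. In diabetic libraries it was 6.61, 8.79 and 13.97% against 14.18, 18.60 and 34.26%, which do not. Clusters of unstimulated BMDMs alone had 12.84, 23.08 and 38.16% in control unstimulated and 9.65, 22.77 and 33.93% in control LPS+IFN-γ libraries. In diabetic libraries they had 12.35, 16.80 and 25.55% against 14.94, 19.64 and 30.29%, so the median was higher after stimulation. Both pairs of ranges overlap, and this class did not hold by its mean coverage.

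The difference between the disease groups in the response to stimulation was tested as an interaction, a test added after seeing the data. Limma called 0 of 1256 candidate regions (0%), with 12 (2 of them clusters) at an unadjusted p under 0.05, and the smallest adjusted p was 1. Without the 3 control BMDM libraries the count was 0 as well. A difference in the response of the clusters between diabetic and control BMDMs was therefore not shown.

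Diabetes itself was compared within each cell state over all 449 clusters. In HSCs 1 cluster was lower in diabetic mice, beside 0.318% of candidate regions (4 of 1256). It was Pitpnc1 (chr11:107390393-107464498), a cluster of HSCs alone, with 18, 19.5 and 22.0% of distal bases covered in control HSCs and 10.5, 13.4 and 17.8% in diabetic HSCs. The groups did not overlap, and the difference was −6.12 ± 1.24 percentage points (limma adjusted p = 0.0255). Top peaks of diabetic HSC libraries covered less distal sequence in all, 7.3, 8.3 and 10.8 Mb against 9.7, 10.6 and 11.2 Mb, and scaled to that length the difference was −2.96 (limma adjusted p = 1). The call was also lost without the 3 control BMDM libraries (limma adjusted p = 0.067), which share the estimate of spread. With 20000 peaks per list it was lost too, at −3.5 (limma adjusted p = 0.371).

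Most clusters were covered less in diabetic libraries of each state. In diabetic HSCs 379 of 449 were covered less than in control HSCs, with a median difference of −1.94 percentage points, beside −1.46 over all candidate regions. After scaling to covered length 219 were higher and 227 lower, with a median of −0.02. In unstimulated BMDMs 388 of 449 were negative (median −3.69, beside −2.66 over all regions, and −0.63 for the clusters after scaling), and in LPS+IFN-γ BMDMs 321 of 449 (median −0.96, beside −0.71, and 0.01 after scaling). In unstimulated BMDMs limma called 0 clusters (0% of 1256 regions, 51 at an unadjusted p under 0.05, 7 of them clusters), with a smallest adjusted p of 0.554 over all regions and 0.72 over clusters. In LPS+IFN-γ BMDMs limma called 0 as well (0%, 10 unadjusted, 2 of them clusters, smallest adjusted p 0.706). Fisher's exact test called 0 in all 3 states.

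H3K4me3 took no part in choosing the clusters, and it was read as the percentage of distal bases under the top 13000 H3K4me3 peaks of a library. At least 1 such peak was found in a median of 20.8% of clusters in HSCs, 32.3% in unstimulated and 29.6% in LPS+IFN-γ BMDMs. Among the other candidate regions, which are shorter, the medians were 12.6, 16.7 and 15.8%. The lower share in HSCs was thus not particular to the clusters. The share was 36.2, 48.3 and 46.6% for clusters of all 3 states, 24.5, 42.6 and 38.4% for those of both BMDM states and 9.3, 17.8 and 18.5% for those of HSCs alone. The distal H3K4me3 of clusters lay within 2.5 kb of noncoding start sites for a median of 14.7, 11.5 and 12.5% of its length in the 3 states. Covered in too few libraries (under 3) were 133 clusters, which leaves 316 in the tests. The H3K4me3 lists held 13730 to 277213 peaks. The shortest was that of diabetic HSC library 6, where 41.5% of the strongest peaks lay over a coding start site, against a median of 80.5% over libraries.

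Between HSCs and unstimulated BMDMs, limma called 8 of the 316 clusters lower in HSCs and 0 higher, beside 2.95% of all 644 regions lower. The median difference was −0.36 percentage points, and −0.38 over all regions. Spen had the largest difference, in a cluster of 10.5 kb at chr4:141473999-141484514 that begins 2506 bp from its start site and thus just beyond the excluded flank. H3K4me3 covered 0, 0 and 2.7% of it in HSCs, 31.9, 40.5 and 48.6% in unstimulated and 13.4, 39.2 and 51.1% in LPS+IFN-γ BMDMs, a difference of −39.46 ± 3.04 (limma adjusted p = 1.64e-11). HSC libraries lay apart from all BMDM libraries.

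Eapp, which encodes an E2F-associated protein, showed the marks in opposite order. Its cluster (chr12:54709365-54739359) belonged to HSCs alone by H3K27ac, with 4.58, 4.86 and 5.50 kb in HSCs, 1.54, 3.10 and 4.04 kb in unstimulated and 0.91, 3.40 and 3.79 kb in LPS+IFN-γ BMDMs. Distal H3K4me3 was 0% in every HSC library, 0, 7.2 and 15.4% in unstimulated and 3.1, 9.9 and 19.4% in LPS+IFN-γ BMDMs (−7.50 ± 1.52, limma adjusted p = 0.00265). Both Spen and Eapp passed under every alternative tried.

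The Ezh2 cluster, which all lists share by H3K27ac, was covered by H3K4me3 over 10.7, 32.0 and 41.0% in HSCs, 43.7, 51.3 and 56.4% in unstimulated and 4.2, 48.9 and 54.4% in LPS+IFN-γ BMDMs. HSCs lay below all unstimulated BMDMs (−19.35 ± 5.02, limma adjusted p = 0.0263). Scaled to covered length the adjusted p of limma was 0.228, with log2 length 0.0689 and with the replicate block 0.0811. The call was thus lost in each of these settings. Whether reads at this place map to several places was not tested for either mark. Smaller differences were called at Bsn (−7.20 ± 2.01), Tnrc18 (−5.32 ± 1.48), Tef (−2.87 ± 0.72), Zfpm1 (−1.74 ± 0.49) and Selenon (−1.45 ± 0.41), with limma adjusted p between 0.0245 and 0.0481.

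**Figure D4:**
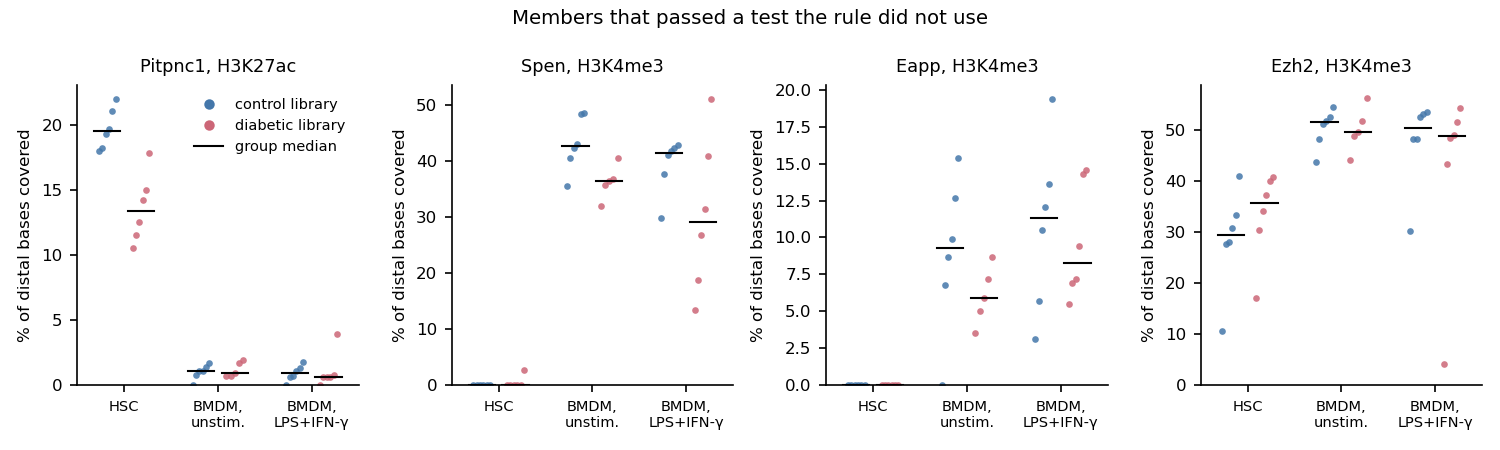
Percentage of distal bases covered (y axis) by library in 4 clusters with a called difference, H3K27ac at Pitpnc1 and H3K4me3 at Spen, Eapp and Ezh2, by cell state on the x axis. Points are libraries (blue control, red diabetic) and black lines group medians. At Spen HSC libraries reach at most 2.7% while BMDM libraries start at 13.4%, and at Pitpnc1 the highest diabetic HSC library (17.8%) is just below the lowest control one (18%).

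No H3K4me3 difference between LPS+IFN-γ and unstimulated BMDMs was called in the clusters. Limma called 0 of 316 (0% of 644 regions), with 85 regions, 39 of them clusters, at an unadjusted p under 0.05 and a smallest adjusted p of 0.151. Scaled to covered length, 1 cluster was higher, and Fisher's exact test called 0. Between diabetic and control libraries limma called 0 clusters in HSCs, 0 in unstimulated and 0 in LPS+IFN-γ BMDMs (0% of 644 regions in each). The unadjusted counts were 5, 52 and 100 regions, of them 1, 18 and 59 clusters, and the smallest adjusted p values were 1, 0.0806 and 0.114. Fisher's exact test called 0 in each. In LPS+IFN-γ BMDMs the difference was positive in 252 and negative in 64 of the 316 clusters. Diabetic LPS+IFN-γ libraries 1, 2 and 3 had an H3K4me3 peak in 56.6, 45.2 and 55.2% of clusters. Libraries 4, 5 and 6 of that group had 30.3, 22.9 and 26.5%, and control LPS+IFN-γ libraries 27.4 to 37.6%. Libraries 1 and 2 are among the 4 of unclear scaling. Without diabetic LPS+IFN-γ library 6, 4 or 5, limma called 12, 9 and 5 clusters higher in diabetic LPS+IFN-γ BMDMs. The count of 0 in this state thus depends on single libraries. It stayed at 0 in all 7 other settings, among them that without the 4 libraries of unclear scaling.

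The promoters of linked genes were read for H3K4me3 over all protein-coding genes, a mark and a place that the choice of clusters did not use. Of 555 linked genes tested, limma called 2 higher and 45 lower in HSCs than in unstimulated BMDMs, beside 1.46% of 13915 genes higher and 6.22% lower. Among genes of clusters of HSCs alone, 1 of 140 was higher and 8 lower, with a median difference of −0.87 percentage points beside −1.19 over all genes, and scaled to the length that each library's top peaks cover the class had 2 higher and 2 lower and a median of 0.62 beside 0.02. Those of both BMDM states had 1 higher and 17 lower of 147 (11.6%), LPS+IFN-γ alone 7 lower of 83 and unstimulated BMDMs alone 5 lower of 43. With the same scaling, 15 of all linked genes were higher and 24 lower (468 and 435 of all genes), so the split between the directions depends on that scaling.

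Id2, an inhibitor of basic helix-loop-helix factors, was one of the 2 that were higher, with 0, 18.2 and 40.0% of its start site flanks (2.5 kb to either side) covered in HSCs and 0, 0 and 23.3% in unstimulated BMDMs (14.20 ± 3.85, limma adjusted p = 0.0233). Midn had 8.9, 26.4 and 56.3% against 45.0, 67.0 and 79.7%, a difference of −31.01 ± 5.31 (limma adjusted p = 0.000644). The stress-response genes Gadd45b (−30.62 ± 8.01) and Ddit4 (−29.09 ± 6.94) were lower as well, with limma adjusted p of 0.0189 and 0.0102. The promoter ranges of Id2 and Midn overlapped between the cell types. Values of single promoters, here and below, are not scaled to covered length.

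Runx1, with its cluster in each cell type, had less promoter H3K4me3 in HSCs, 5.1, 16.1 and 23.1% against 17.2, 25.7 and 35.5% in unstimulated and 19.4, 27.7 and 33.8% in LPS+IFN-γ BMDMs (−11.25 ± 1.77 for HSCs against unstimulated, limma adjusted p = 0.000295). At Runx1 control HSCs had 5.1, 11.3 and 16.1% against 22.5, 29.2 and 35.5% in control unstimulated BMDMs. Diabetic HSCs had 16.1, 17.2 and 23.1% against 17.2, 23.8 and 25.7%, which overlap. Fli1, although its cluster belonged to HSCs alone, was also lower, 11.5, 21.8 and 52.5% against 20.7, 38.4 and 53.7% (−13.42 ± 4.05, limma adjusted p = 0.0394). Lmo2 and Gfi1b differed by −0.51 ± 1.27 and −0.52 ± 1.39 percentage points, with limma adjusted p of 0.83 and 0.842. Among genes of both BMDM states, Nfatc2 (−8.79 ± 1.92, limma adjusted p = 0.00539) and Lrp1 (−5.61 ± 1.39, limma adjusted p = 0.0134) were lower in HSCs. Between LPS+IFN-γ and unstimulated BMDMs limma called 0 of 555 linked promoters (0% of 13915 genes, 665 unadjusted, 36 of them linked), the smallest adjusted p was 0.759, and Fisher's exact test called 0.

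Sequence under the clusters was compared by the share of distal summit windows of 200 bases that hold a motif match. The GATA letters AGATAA, read by factors of stem, erythroid and megakaryocyte cells, were found in 3.8, 5.2 and 7.3% (lowest, median and highest HSC library) of windows in clusters of HSCs alone. In clusters found in BMDMs and not in HSCs, 1.7, 2.8 and 3.3% of windows held them in unstimulated and 1.9, 2.8 and 4.1% in LPS+IFN-γ BMDMs. In clusters of all 3 states, the HSC libraries had 2.9, 4.2 and 5.2%. Distal peaks outside clusters had 3.4, 4.2 and 5.8% in HSC libraries, which overlaps the clusters of HSCs alone widely, and medians of 3.4% in unstimulated and 3.7% in LPS+IFN-γ libraries. All of these lie below the 13.3% of 264761 windows spread over the genome, which are poorer in G and C (41.7% against a median of 57% in clusters of HSCs alone). Windows of the same HSC clusters read in BMDM libraries still had medians of 4.4% and 4.2%.

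**Figure D5:**
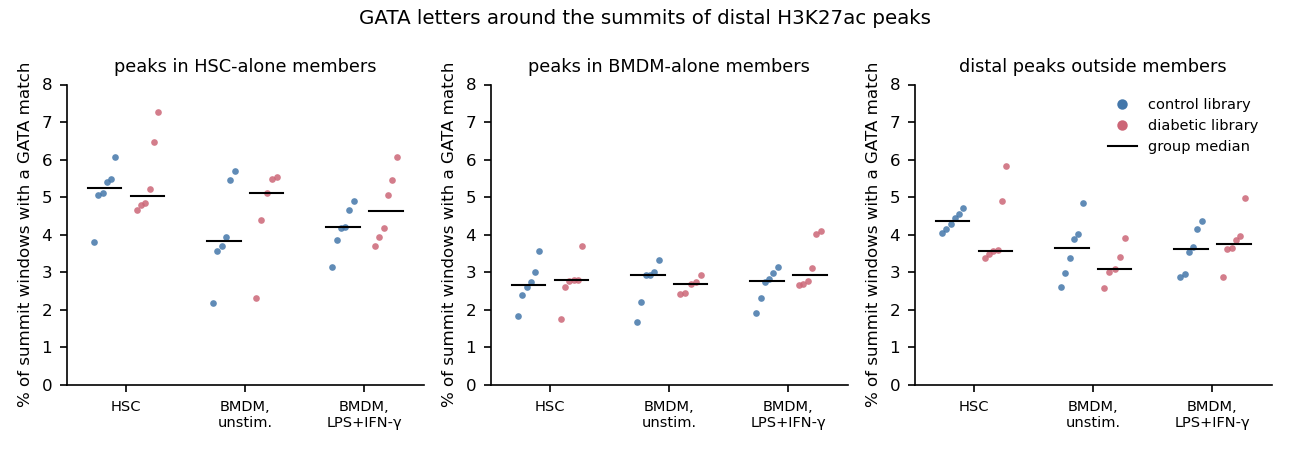
Share of 200-base summit windows that hold the GATA motif (%, y axis) in clusters of HSCs alone, clusters of BMDMs alone and distal peaks outside clusters, by cell state on the x axis. Points are libraries (blue control, red diabetic) and black lines group medians. Clusters of HSCs alone have medians of 5.2% in HSCs and 4.4 and 4.2% in the BMDM states, above 2.8% in clusters of BMDMs alone.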

How the data were processed

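Peak lists of 70 ChIP-seq libraries (35 per mark) of 106 samples were used, and the 36 input samples were not analysed here. The submitters' processing notes name Trim Galore 0.3.3, cutadapt 1.8, FastQC 0.11.3, Bowtie2 2.2.6, Picard 2.19.2 and 2.18.14, bedtools 2.19.1 and MACS2 2.2.7.1, with builds GRCm38 and mm10. The authors deposited, for each peak, its fold enrichment over background (a ratio) and the −log10 of p and q within its own library; the −log10 p ranked peaks here, and values were not compared between libraries. Replicates were called separately. The lists give no read totals, and depth, counting intervals and floors are therefore unknown.

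Start sites (93513 of 21938 protein-coding genes) came from GENCODE M21. Build was checked: 0 peaks passed a chromosome end. Cluster rule, classes and gene links are as stated above; members and lists were chosen with earlier results of these data known. Named clusters are the first 6 of a class by lists of its states (ties by median length), clusters linked to listed genes and the 5 largest called differences each way. Coverage in percent was fitted with limma 3.58.1 (R 4.3.3, trend, 1 spread over all 6 groups, or over the libraries of 1 disease group for regions set in the other), over regions or promoters covered in at least 3 libraries, with Benjamini-Hochberg adjustment over all of them. The scripts were tested on simulated data. Tables and figures used python 3.11.15, numpy 2.4.6, pandas 2.3.3, scipy 1.17.1 and matplotlib 3.10.9. The interaction test, the scaling to covered length and the choice of regions without 3 control lists were added after seeing the data.

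Same-numbered libraries were checked for pairing by the correlation of their deviations from group means. For H3K27ac in diabetic LPS+IFN-γ against unstimulated BMDMs all 5 pairs were above 0.1 (0.15 to 0.338, median 0.238). A fit that takes the numbers as pairs is therefore given there, beside the main fit, which does not pair. For H3K4me3 the same diabetic comparison gave −0.187 to 0.263 (median 0.111). In every comparison other than the first at least 1 pair was below 0.1. For H3K4me3 in control LPS+IFN-γ against unstimulated BMDMs the pairs ranged from −0.321 to 0.7 (median 0.549). Whether numbers pair libraries in other comparisons was thus not settled by this check.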

Additional observations from a re-analysis of the deposited data

How the results depend on the processing

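The number of clusters stayed within 1.5 times of 449 under all alternatives but a stricter share of lists, which gave 269 (48 of all 3 states, 78 of HSCs alone, 126 of BMDMs alone); joining within 5 kb left 53 and keeping 200 intervals 48 of all 3 states. Without single libraries there were 430 to 467 clusters. The 1 H3K27ac call between diabetic and control HSCs fell to 0 with log2 length, Fisher's exact test, scaling to covered length or without the 3 control BMDM libraries, and was 0 to 2 without single libraries (0 without diabetic HSC 4, control HSC 3 or 6, 2 without diabetic HSC 2, 5 or 6). With 20000 peaks per list the count stayed at 1, but the call at Pitpnc1 was lost (limma adjusted p = 0.371). The 8 H3K4me3 calls of HSCs against unstimulated BMDMs became 27 with log2 length, 80 with 30000 peaks, 15 with Fisher's exact test, 5 scaled, 4 with the replicate block and 17 without the 4 libraries of unclear scaling, and 2 to 14 without single libraries (2 without diabetic unstimulated 2, 3 without 1, 13 to 14 without diabetic LPS+IFN-γ 1, 2 or 3, and 4 or 5 without diabetic unstimulated 4, diabetic HSC 1 or 6, control unstimulated 3 or 6, or control HSC 2, 3, 5 or 6). LPS+IFN-γ against unstimulated H3K4me3 gave 1 when scaled and 0 to 1 without single libraries (1 without diabetic LPS+IFN-γ 3 or 5). Diabetic against control H3K4me3 gave 0 to 2 in unstimulated BMDMs (2 without control unstimulated 1, 1 without diabetic LPS+IFN-γ 3) and 0 to 12 in LPS+IFN-γ BMDMs (1 also without diabetic LPS+IFN-γ 3 or control unstimulated 2). For regions set in the other disease group, Fisher's exact test called 28 and 23 clusters between HSCs and unstimulated BMDMs in diabetic and control libraries, and 0 between BMDM states in diabetic libraries. The 49 calls between BMDM states in diabetic libraries ranged from 20 to 67 without single libraries. With the replicate block that pairs same-numbered libraries there were 38. Only in this comparison did every same-numbered pair pass the threshold given above for taking numbers as pairs. Elsewhere the block moved no count by over 1.5 times but those given here. The 0 calls in control libraries became 7 without the 3 libraries and 0 to 1 without single ones (1 without control LPS+IFN-γ 5). Linked promoters called between HSCs and unstimulated BMDMs (47) were 29 without the filter, 7 by Fisher's exact test, 29 with the replicate block and 26 to 56 without single libraries (26 to 30 without diabetic unstimulated 2, 4 or 5, diabetic HSC 1 or 6, control unstimulated 3 or 6, or control HSC 2 or 3). The cause of these shifts was not tested, except that Fisher's exact test could reach few regions. Depth is unknown, and list length per library sets how much of a cluster is covered.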

Other observations

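A cluster of all 3 states whose nearest coding start site is that of Esp38 stood out among the 449, and it was chosen after its values were seen. It is the shortest of its class (chr17:39842857-39849030, 6.2 kb), lies over the annotated ribosomal RNA gene CT010467.1 and the noncoding genes AY036118, Gm26917 and Gm42418, and was found in 27 lists. Top peaks covered 0, 5.18 and 5.56 kb of it in HSCs (lowest, median and highest library), 5.62, 6.05 and 6.17 kb in unstimulated and 5.87, 6.06 and 6.13 kb in LPS+IFN-γ BMDMs. In BMDMs nearly the whole interval thus lay under peaks in each library. Ribosomal RNA genes are repeated in the genome, and how reads that map to several places were treated is not given in the sources used here, so the values need not stem from this place.

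Some clusters lay far from any protein-coding start site, 6 of them over 100 kb away. The cluster nearest to Haao (chr17:83951680-84027208, HSCs alone) starts 103717 bp from that start site and borders the Zfp36l2 cluster. It was found in 11 HSC lists and 0 BMDM lists, with 7.65, 20.52 and 32.13 kb covered in HSCs and at most 3.37 kb in BMDMs. The cluster nearest to Map3k1, a MAP kinase kinase kinase gene, is the longest of HSCs alone (chr13:111892260-112101213, 209.0 kb, 83267 bp away), with 6.32, 14.52 and 31.86 kb in HSCs and up to 11.44 kb in BMDMs.

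The other motifs varied between the classes too. NF-kB letters were found in medians of 4.5, 4.6 and 4.6% of windows in clusters of all 3 states (HSC, unstimulated and LPS+IFN-γ libraries), 3.3, 2.1 and 2.3% in clusters of HSCs alone and 4.3, 3.3 and 3.5% in clusters of BMDMs alone, beside 2.9% of genome windows. The shares of the first and the second did not overlap in LPS+IFN-γ libraries (3.6 to 5.3% against 1.6 to 3.1%). Nor did they in unstimulated libraries (3.6 to 5.2% against 1.5 to 3.2%), while in HSC libraries they met (3.8 to 6.6% against 2.6 to 3.8%). All libraries read the same clusters, so these ranges are not independent samples of their sequence. Distal peaks outside clusters held NF-kB letters in medians of 3.5% (HSC), 3.0% (unstimulated) and 3.1% (LPS+IFN-γ libraries). AP-1 letters had medians of 5.1, 4.8 and 5.0% in clusters of all 3 states, 4.4, 3.4 and 3.1% in those of HSCs alone and 5.9, 4.6 and 5.3% in those of BMDMs alone (genome 6.0%). C/EBP letters had 4.4, 3.6 and 4.3%, then 4.9, 5.4 and 4.7%, then 4.2, 3.8 and 3.9% (genome 9.5%). Over these 3 classes and states, medians for PU.1 lay between 0.9 and 1.8%, for RUNX between 2.1 and 3.8%, for IRF between 2.2 and 3.2% and for MITF/TFE between 0.0 and 0.3%.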
